A study of Mus musculus with 6 samples.

Results

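Described here are 10 genes of the fibroblast growth factor (FGF) system in intestinal stroma, namely the ligands Fgf1, Fgf2, Fgf7, Fgf9, Fgf10 and Fgf18 and the receptors Fgfr1, Fgfr2, Fgfr3 and Fgfr4. They were taken by gene symbol from the 33697 genes of the count tables, and all 10 were found. Cells came from Flare-TSLP mice, C57BL/6 animals in which a reporter cassette coding for tdTomato behind an internal ribosome entry site was placed at the end of the Tslp gene (1 embryonic stem cell clone). The cassette carried a loxP site, and another loxP site lay further upstream within the gene. Adult mice of both sexes were used, every group carried the same allele, and no treatment or Cre driver is given in the labels. Live tdTomato+ lamina propria cells were sorted after removal of the epithelium and sequenced as 3′ single-cell libraries, with 2 libraries of proximal small intestine, 2 of distal small intestine, 1 of cecum and 1 of large intestine. Cells sorted as reporter-negative were not analysed here. The tdTomato counts were not used to select cells, so cells carried along in the sort may be among those measured, also in the immune-like, glia-like and epithelial-like classes. Each library holds 3 hashtagged samples that are not paired with animals in the labels, so each library counted as 1 sample and p-values measure only the spread between these libraries. The cecum and large intestine libraries are called the large bowel together.

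FGF ligands are secreted proteins that bind receptor tyrosine kinases on nearby cells together with heparan sulfate chains. Fgf7 and Fgf10 act on the epithelial splice form of Fgfr2, Fgf9 and Fgf18 act mainly on mesenchymal splice forms of the receptors, Fgf1 binds every form, and Fgf2 is a broad mitogen of mesenchymal and endothelial cells. In the gut, mesenchymal Fgf10 and Fgf7 are known as signals to epithelial growth, and a signaling cell switches on feedback genes such as the Sprouty family and targets such as Etv4 and Etv5. Reads at the 3′ end do not separate the receptor splice forms.

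Cells were assigned to classes by counting the markers they carried, with no FGF gene among the markers. Of 93912 cells kept, 68958 were fibroblast-like (9003 to 17490 per library), and 225 to 6157 per library were like lymphatic endothelial cells (LEC-like). Within the fibroblast-like cells, telocyte-like cells carried at least 4 of 7 markers including Foxl1, Sox6, Bmp7, Wnt5a and Lgr5, subepithelial-like cells at least 4 of 9 including Wnt4, Cxcl14, Ntf3 and Lrat, trophocyte-like cells at least 4 of 6 including Grem1, Dkk2, Ackr4 and Rspo3, and universal fibroblast-like cells at least 4 of 5 including Pi16, Dpp4 and Cd248. Trophocyte-like and subepithelial-like cells passed no other gate of these. Universal fibroblast-like cells could also pass the trophocyte gate, and telocyte-like cells the subepithelial or trophocyte gate. Comparisons of these classes with trophocyte-like cells thus keep such cells in the first class. Fibroblast-like cells that passed none of these gates, or another combination of them, are called other fibroblast-like. The mix differed by region. Trophocyte-like cells were 51.4% to 68.0% of the fibroblast-like cells in the small intestine, 6.36% in cecum and 7.33% in large intestine, whereas telocyte-like cells were 0.269% to 0.717%, 3.30% and 29.2%. More of the large bowel cells carried just the minimum of 4 markers in the subepithelial-like class (47.5% and 51.3% against 12.7% to 17.0% in the small intestine) and in the trophocyte-like class (68.5% and 88.0% against 31.9% to 43.9%), but not in the universal fibroblast-like class (74.7% and 86.8% against 86.5% to 98.1%). In the subepithelial-like class the markers Lrat (0.787 to 3.20 counts per 1000000 UMIs, CPM) and Frmd5 (1.77 to 2.70 CPM) were almost absent from the large bowel libraries and reached 421 to 906 and 89.6 to 318 CPM in the small intestine, and in the trophocyte-like class Dkk2 reached 17.3 to 21.0 CPM in the large bowel against 592 to 1056 CPM. The class names therefore describe gates, and the large bowel cells of a class are not shown to be the same cells as those of the small intestine.

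Libraries held 109675337 to 206827504 unique molecular identifiers (UMIs) on genes. Free RNA, taken from barcodes with at most 100 UMIs, made up 2.90% to 3.82% of the UMIs. The proximal 1, distal 1, cecum and large intestine libraries carried one set of hashtags, and the proximal 2 and distal 2 libraries another. Levels are UMIs summed over the cells of a class and library per 1000000 UMIs, for sums of at least 25 cells. Values in series follow the order proximal 1, proximal 2, distal 1, distal 2, cecum and large intestine. Levels are compared between classes within a gene and not between genes.

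**Figure D1:**
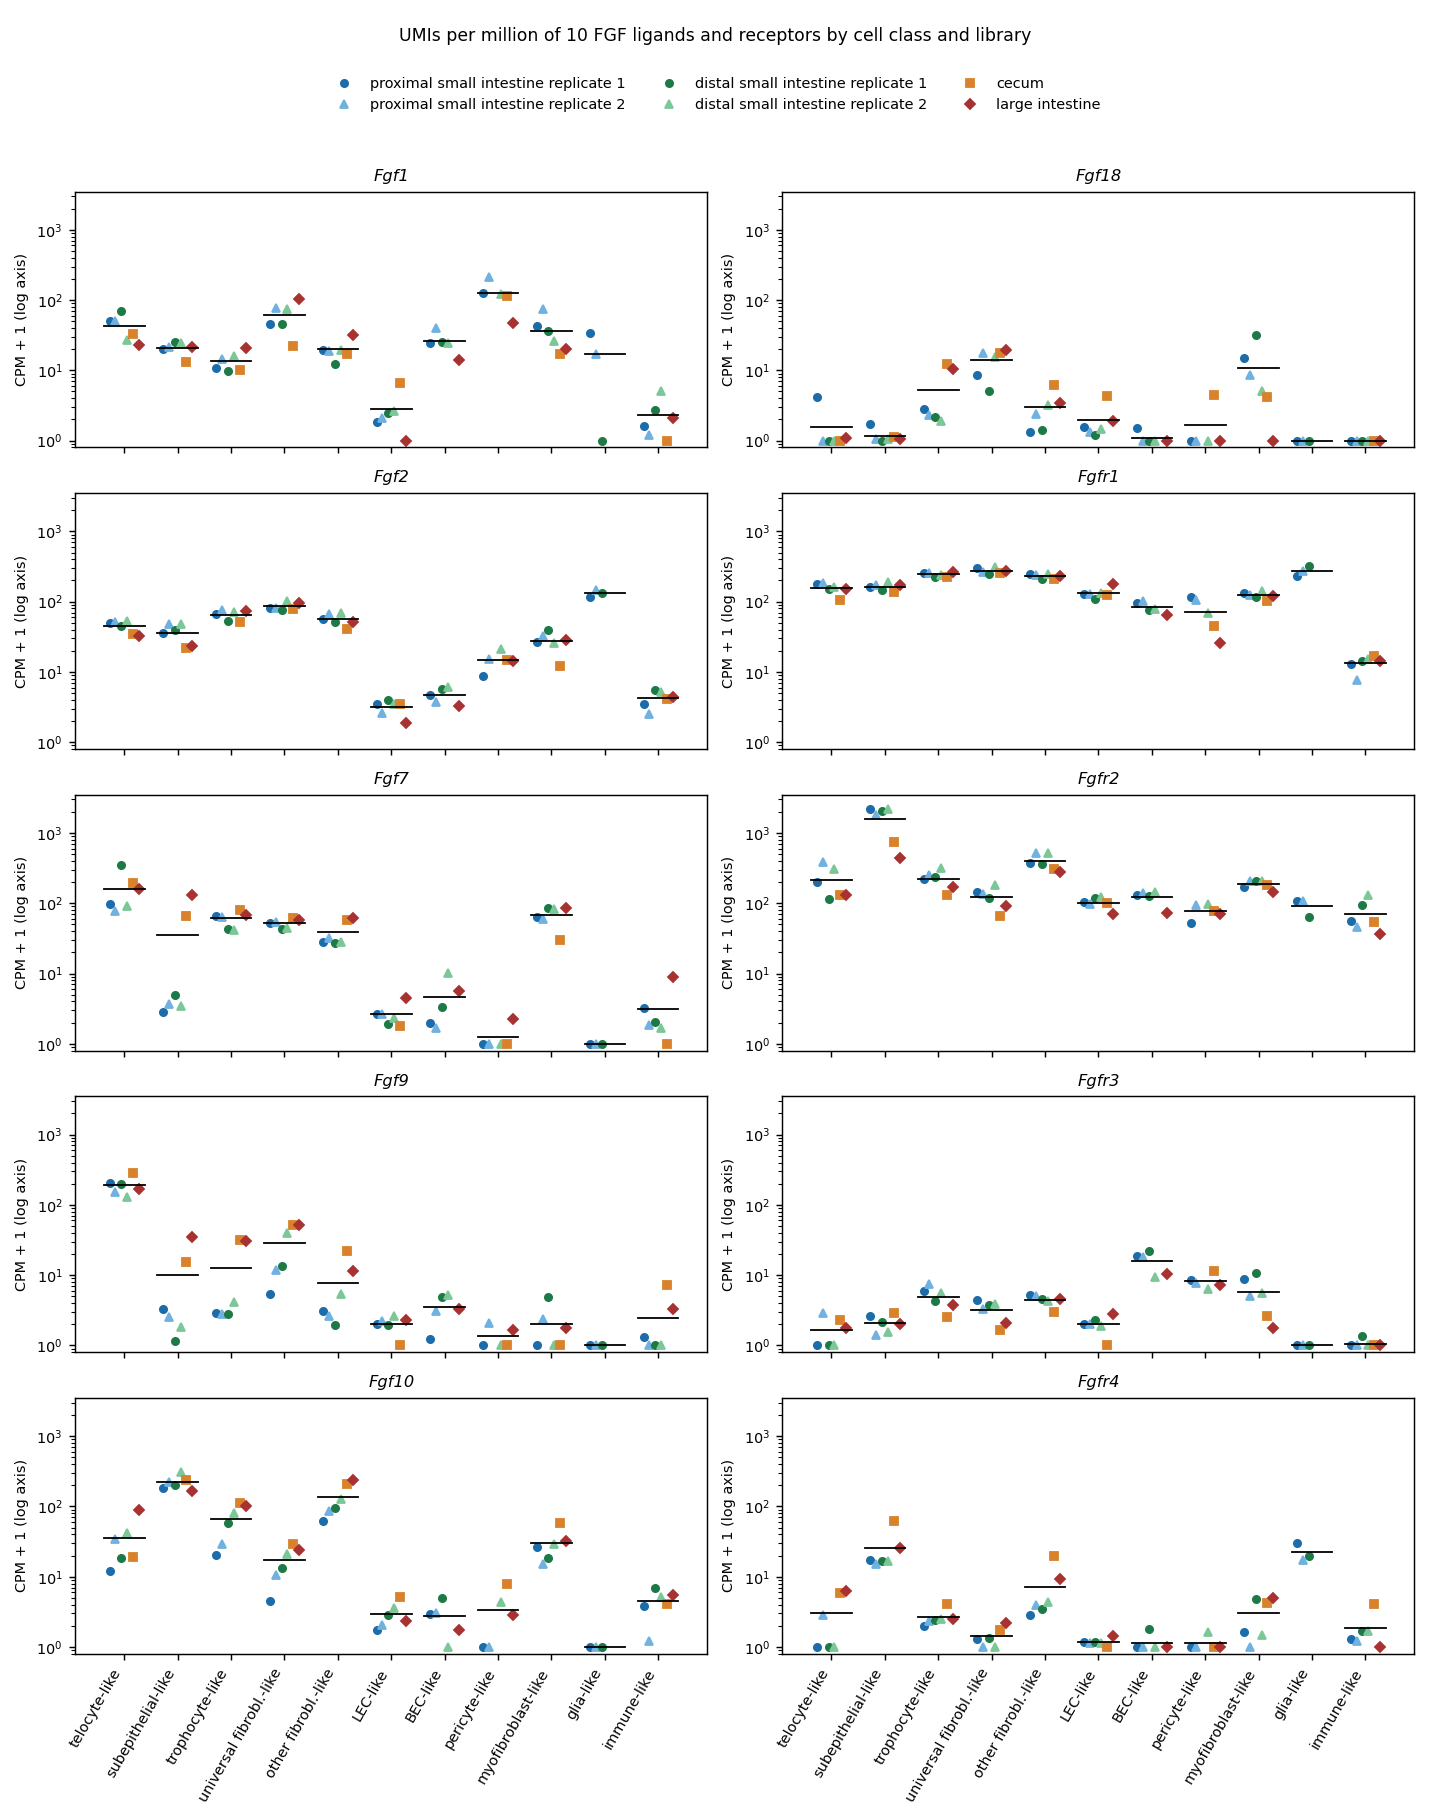
Levels of the 10 genes in 11 cell classes, 1 panel per gene, as CPM + 1 on a log axis. Each point is 1 library with at least 25 cells of the class and the short line is the mean over libraries. Fgf9 stood highest in telocyte-like cells, Fgf10 and Fgfr2 in subepithelial-like cells, and Fgf1 in pericyte-like cells.

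Fgf10 (ENSMUSG00000021732, chromosome 13, 118850915 to 118928672, plus strand, GRCm39), which drives budding and growth of epithelia, was highest in the subepithelial-like cells, at 183.1, 219.5, 198.5, 308.4, 236.8 and 167.1 CPM. The trophocyte-like cells held 19.7, 28.0, 56.4, 79.1, 111.9 and 102.0 CPM. Every subepithelial-like value lay above every trophocyte-like value. Other fibroblast-like cells came second in the order (60.9 to 237.8 CPM) and exceeded the subepithelial-like cells in the large intestine only, so these neighbours did not differ beyond the spread over libraries (higher in 5 of 6, exact p = 0.09375). Universal fibroblast-like cells held 3.50 to 28.2 CPM, and LEC-like, immune-like and blood endothelial cell-like (BEC-like) cells averaged 1.75 to 3.45 CPM. Gm16263 lies on the opposite strand of Fgf10, and the labels do not say whether counting used the strand.

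Fgf7 (ENSMUSG00000027208, chromosome 2, 125876578 to 125933408, plus strand), the keratinocyte growth factor, was highest in the telocyte-like cells, at 95.4, 75.4, 351.5, 89.3, 194.6 and 158.5 CPM. Distal 1 stood far above the other small intestinal libraries. Single cells weighed on both distal values: in distal 1, 41 of 143 Fgf7 UMIs lay in 1 cell, and in distal 2, 23 of 24. An Fgf7 UMI was found in 46.8% of the telocyte-like cells of distal 1 and in 7.14% of those of distal 2. In the other libraries the share was 29.1% to 34.6%. Trophocyte-like cells held 41.1 to 78.3 CPM in a narrow range, myofibroblast-like cells 29.0 to 85.9 CPM and universal fibroblast-like cells 42.6 to 61.6 CPM. Subepithelial-like cells differed by region, with 1.83, 2.69, 3.91 and 2.46 CPM in the small intestine and 63.8 and 131.4 CPM in the large bowel. The regions did not overlap. In the small intestine Fgf7 was thus lowest among the fibroblast subsets in the class that held most Fgf10. In trophocyte-like cells of the proximal 1 library 35.9% had an Fgf7 UMI, 10.0% an Fgf10 UMI and 2.31% both, against 3.59% if the genes were unrelated. The share with both was also below that value in the other small intestinal libraries, below it by less in the large intestine (8.74% against 9.21%) and above it in the cecum (14.4% against 11.99%).

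Fgf9 (ENSMUSG00000021974, chromosome 14, 58309673 to 58350316, plus strand), a ligand of mesenchymal receptor forms, was highest in telocyte-like cells. Telocyte-like cells held 206.4, 150.8, 196.6 and 130.2 CPM in the small intestine and 281.9 and 169.0 CPM in the large bowel. The trophocyte-like cells held 1.86, 1.82, 1.77 and 3.08 CPM in the small intestine and 31.1 and 29.8 CPM in the large bowel. Universal fibroblast-like cells held 4.45 to 39.0 CPM in the small intestine, and 50.2 and 51.2 CPM in the large bowel. Telocyte-like cells were above every other fibroblast subset in each of the 6 libraries, and the regions overlapped in the telocyte-like cells but not in the trophocyte-like cells. An Fgf9 UMI was found in 58.2% to 73.8% of telocyte-like cells per library (31.7% to 45.6% after thinning each cell to 2500 UMIs), and in 0% to 2.04% (0% to 0.37%) of immune-like cells. Median depths were 6978 to 11005 UMIs in telocyte-like and 4213 to 10485 UMIs in immune-like cells.

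Fgf2 (ENSMUSG00000037225, chromosome 3, 37402495 to 37464257, plus strand) was present in all fibroblast subsets. Universal fibroblast-like cells held 80.8, 80.0, 75.4, 99.9, 76.5 and 93.3 CPM. Trophocyte-like cells followed with 64.7, 75.5, 51.5, 69.3, 49.6 and 71.6 CPM. The order universal, trophocyte-like, other, telocyte-like (31.5 to 52.1 CPM) and subepithelial-like (21.0 to 47.7 CPM) was the same in all 6 libraries at each of these steps (exact p = 0.03125 each, the smallest that 6 libraries allow). Glia-like cells, 114 cells in 3 small intestinal libraries, stood above them at 114.1, 145.3 and 130.4 CPM, and 3 libraries cannot give an exact p below 0.25. LEC-like cells were at 0.88 to 3.0 CPM. Fgf2os and Nudt6 overlap Fgf2 on the opposite strand, as do Gm5820 for Fgf1, Fam227b for Fgf7 and Gm16159 for Fgfr1.

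Fgf1 (ENSMUSG00000036585), which binds every receptor form and has no signal peptide, was highest in the pericyte-like cells, at 127.0, 211.5, 120.8, 113.4 and 45.6 CPM in the 5 libraries with enough cells (no value for distal 1). Universal fibroblast-like cells held 45.2, 75.1, 45.3, 74.0, 21.3 and 102.3 CPM. The order was reversed in the large intestine, and pericyte-like cells were higher in 4 of 5 libraries (exact p = 0.1875, where 5 libraries cannot give less than 0.0625). Telocyte-like (22.1 to 68.8 CPM) and myofibroblast-like cells (16.1 to 74.1 CPM) overlapped with them, and LEC-like cells had at most 5.7 CPM. Fgf18 (ENSMUSG00000057967, chromosome 11, 33067014 to 33097828, minus strand), a ligand that binds receptors similar to those of Fgf9, was low everywhere. Its highest class was the universal fibroblast-like cells, at 7.63, 16.9, 4.05, 14.6, 16.7 and 18.4 CPM, followed without a difference beyond the spread by myofibroblast-like cells (0 to 31.0 CPM, exact p = 0.6562). No Fgf18 UMI was counted in immune-like cells of any library, which allows a level of up to 0.226 CPM, a limit for counting error only.

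Fgfr2 (ENSMUSG00000030849, chromosome 7, 129763471 to 129868272, minus strand), of which only the epithelial splice form is the receptor of Fgf7 and Fgf10, was concentrated in the subepithelial-like cells. Which splice form these cells carried was not measured. These held 2209, 1827, 2041 and 2170 CPM in the small intestine, 753.2 CPM in cecum and 440.1 CPM in large intestine. The 4 small intestinal values lay within a narrow range and above both large bowel values. Trophocyte-like cells held 222.2, 254.9, 232.6, 317.0, 129.2 and 171.9 CPM, and telocyte-like cells 113.1 to 386.4 CPM. The steps from subepithelial-like to other fibroblast-like (274 to 523 CPM) and on to trophocyte-like cells held in 6 of 6 libraries (exact p = 0.03125 each). An Fgfr2 UMI was found in 82.6% to 99.6% of subepithelial-like cells (53.4% to 96.5% after thinning). Immune-like cells had one in 23.4% to 34.1% (10.2% to 13.7%), with 36.1 to 129.1 CPM against 197 to 483 CPM in the free RNA, and whether these UMIs came from free RNA was not tested.

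Both Fgf10 and Fgfr2 were detected in 51.7% to 78.2% of the subepithelial-like cells per library. In proximal 1 this was 62.8% against 62.5% if the genes were unrelated, where nearly every cell of the class carried Fgfr2. In the cecum it was 63.0% against 60.2% and in the large intestine 51.7% against 47.6%. Fgf10 and Fgfr2 had the highest correlation of any pair of the 10 genes over the 61 class sums (Pearson r = 0.77 of log2(CPM + 1), a description of points that share libraries), followed by Fgf2 and Fgfr1 (0.71) and Fgf7 and Fgf9 (0.69), and Fgfr3 and Fgfr4 had the lowest (-0.28).

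Fgfr1 (ENSMUSG00000031565, chromosome 8, 26008745 to 26066824, plus strand), the main receptor of mesenchymal cells, was present in all stromal classes. Universal fibroblast-like cells held 303.6, 265.7, 249.4, 310.9, 252.5 and 274.3 CPM, and trophocyte-like cells 258.1, 252.7, 220.9, 241.9, 225.8 and 264.4 CPM. Glia-like cells lay among them at 228.2, 274.5 and 316.8 CPM and became the highest class after thinning. Telocyte-like (106 to 185 CPM), subepithelial-like (138 to 187 CPM) and LEC-like cells (109.8 to 177.3 CPM) overlapped, and immune-like cells were at 6.6 to 15.8 CPM.

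Fgfr4 (ENSMUSG00000005320, chromosome 13, 55300453 to 55316572, plus strand), a receptor best known from liver, was low and concentrated in the subepithelial-like cells, at 16.2, 14.3, 15.5, 15.7, 60.5 and 24.8 CPM. The small intestinal values were nearly equal and the cecum stood apart above them. Glia-like cells had 29.3, 16.2 and 18.6 CPM, on 16 UMIs in all, of which the distal 1 value rested on 3. These values lay above the subepithelial-like ones in each of the 3 libraries shared, but on too few UMIs to order the 2 classes. Trophocyte-like cells averaged 1.67 CPM. Fgfr3 (ENSMUSG00000054252, chromosome 5, 33879067 to 33894412, plus strand), a receptor that restrains growth of cartilage, averaged 0.666 to 3.90 CPM in the fibroblast subsets. BEC-like cells held 17.9, 17.2, 21.3, 8.43 and 9.30 CPM in the 5 libraries other than the cecum, the 51 epithelial-like cells of the large intestine 12.45 CPM, and pericyte-like cells 5.28 to 10.3 CPM.

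Over the 10 genes, 100 pairs of neighbouring classes were compared by exact paired permutation of the libraries (two-sided). Of these, 17 reached the smallest p that 6 libraries allow (0.03125), and 12 did after thinning to 2500 UMIs per cell. Too few pairs had 6 libraries for any to pass Benjamini-Hochberg adjustment over the 100 pairs (smallest adjusted p = 0.1838). The lack of a pass was thus fixed in advance and is not a result. The neighbours were also ordered by the same values that were then compared. The highest class was the same after thinning for 9 of 10 genes and after subtraction of free RNA for 10 of 10. Class differences were also tested with all genes in 1 fit, using edgeR's quasi-likelihood test on the summed counts with the library as a block. Its p-values were Benjamini-Hochberg adjusted over all genes tested. Log2 fold changes from these fits carry their standard error.

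**Figure D2:**
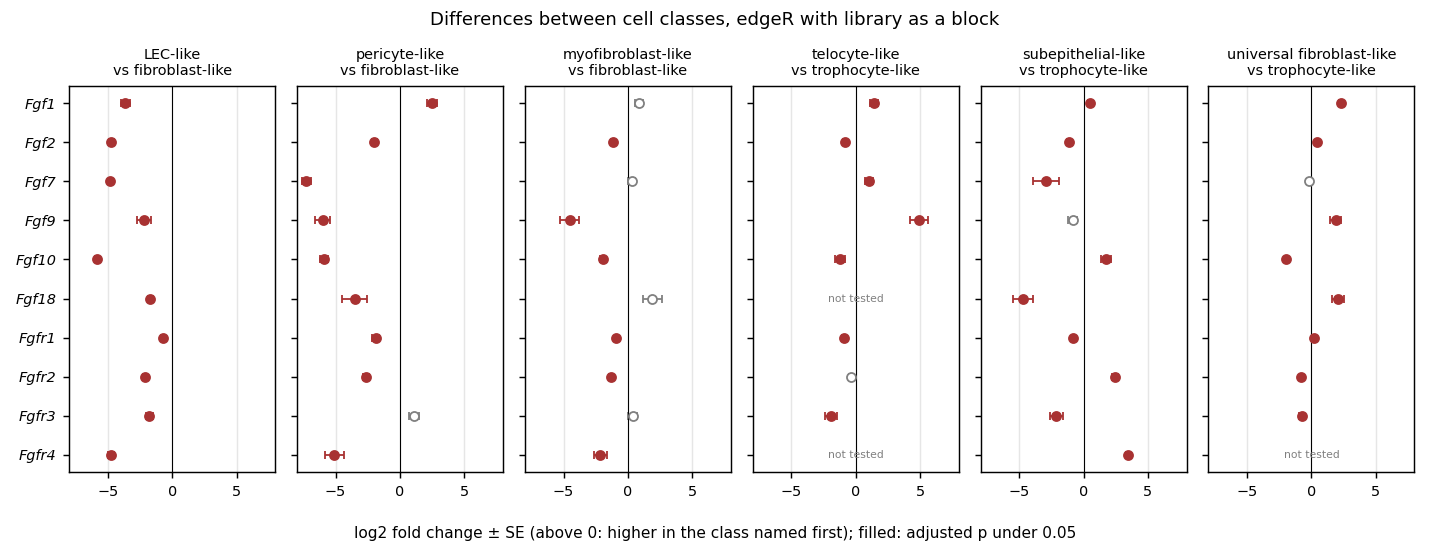
Log2 fold change (± SE) of the 10 genes in 6 comparisons of cell classes within libraries, from edgeR. Filled points had an adjusted p under 0.05, and genes below the filter on low counts are marked as not tested. All 10 genes were lower in LEC-like than in fibroblast-like cells, and in telocyte-like against trophocyte-like cells Fgf9 moved furthest.

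LEC-like cells, the other large reporter-positive population, were lower than fibroblast-like cells in all 10 genes, from Fgf10 (-5.83 ± 0.16, adjusted p = 3.4e-08) to Fgfr1 (-0.72 ± 0.11, adjusted p = 0.000358). In this comparison 68.1% of the 17731 genes tested were called, 32.1% in the higher and 35.9% in the lower direction, and the median log2 fold change was -2.90 for the 10 genes and -0.05 for all genes. Fgf7 (-4.80), Fgfr4 (-4.75) and Fgf2 (-4.73) lay close behind Fgf10. Fgfr1 had the smallest difference of the 10 genes.

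Pericyte-like cells were higher than fibroblast-like cells in Fgf1 (2.49 ± 0.36, adjusted p = 0.000196) and lower in 8 of the 10 genes, with 36.5% of all genes called (14.4% higher and 22.1% lower). Fgf7 was all but missing from them, with no UMI in 4 of the 5 libraries and 2 UMIs in the large intestine. The Fgf18 call, on 1 UMI, was lost without distal 2 (adjusted p = 0.0524) or the large intestine (0.0664). Fgfr3 missed the threshold there in edgeR at 1.06 (adjusted p = 0.0518), and was called higher with DESeq2 (1.11, adjusted p = 0.0182), limma-voom (1.22, adjusted p = 0.0194) and RLE size factors in edgeR (1.12, adjusted p = 0.0461). Myofibroblast-like cells were lower in 6 genes and higher in none, with 37.4% of all genes called (15.6% higher and 21.9% lower). The lower genes were Fgf9 (-4.52, and -3.37 without the large intestine), Fgfr4 (-2.13), Fgf10 (-1.96), Fgfr2 (-1.31), Fgf2 (-1.16) and Fgfr1 (-0.92). At an unadjusted p under 0.05, 2 were higher, limma-voom called 0 higher and DESeq2 1. With the small intestinal libraries only, Fgf1 (1.35, adjusted p = 6.5e-06), Fgf7 (0.73, adjusted p = 0.000549) and Fgf18 (2.89, adjusted p = 1.4e-05) were called higher, and Fgf1 and Fgf18 were also called higher without the cecum (adjusted p = 0.0403 and 0.0293) or without the large intestine (0.00261 and 0.00553). Fgf18 at 1.90 (adjusted p = 0.0589) and Fgf1 at 0.85 (adjusted p = 0.0543) missed the threshold, and Fgf7 and Fgfr3 did not pass it either.

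Among fibroblast subsets the trophocyte-like cells served as the common reference, so the 3 comparisons that follow share those sums. Telocyte-like cells were higher in Fgf9 (4.92 ± 0.67, adjusted p = 0.000334), Fgf1 (1.43 ± 0.34, adjusted p = 0.00873) and Fgf7 (1.05 ± 0.31, adjusted p = 0.0257). They were lower in Fgfr3 (-1.92), Fgf10 (-1.23 ± 0.36, adjusted p = 0.0272), Fgfr1 (-0.91) and Fgf2 (-0.84), so 7 of the 8 genes tested were called against 32.7% of all genes (13.9% higher and 18.8% lower), and Fgfr2 was not. The Fgfr3 value rested on 1 UMI in the telocyte-like cells of the 4 small intestinal libraries, and on 29 UMIs over all 6 libraries. The Fgf7 call was lost without distal 2 (1.06, adjusted p = 0.0542) and with a gate of 5 markers, which only the large bowel libraries could fill (0.067), as was the Fgf1 call (0.66, adjusted p = 0.1023). The Fgf10 call was lost in 6 of 15 alternatives, among them without proximal 1 (adjusted p = 0.0537), distal 1 (0.0699) or distal 2 (0.0587).

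Subepithelial-like cells were higher than trophocyte-like cells in Fgfr4 (3.47 ± 0.14, adjusted p = 7.7e-06), Fgfr2 (2.45 ± 0.25, adjusted p = 0.000225), Fgf10 (1.74 ± 0.35, adjusted p = 0.00535) and Fgf1 (0.49 ± 0.16, adjusted p = 0.0366). They were lower in Fgf18, Fgfr3, Fgf7 (-2.92 ± 0.98, adjusted p = 0.041), Fgf2 (-1.13) and Fgfr1 (-0.81). That is 9 of 10 genes, where 50% of all genes were called (24.9% higher and 25.1% lower). The Fgf7 call was lost in 8 of 15 alternatives, including without any 1 of the small intestinal libraries (adjusted p = 0.104 to 0.1125), and its value ran from -3.65 without the large intestine to -2.42 without proximal 1. The Fgf1 call was lost in 7 of 15, also without any 1 small intestinal library (adjusted p = 0.0705 to 0.1035). Universal fibroblast-like cells were higher in Fgf1 (2.28 ± 0.12, adjusted p = 4e-06), Fgf18 (2.07 ± 0.46), Fgf9 (1.88 ± 0.41), Fgf2 (0.46 ± 0.07) and Fgfr1 (0.22 ± 0.05), and lower in Fgf10 (-1.996 ± 0.09), Fgfr2 (-0.83) and Fgfr3 (-0.77), 8 of the 9 genes tested against 30% of all genes (15.9% higher and 14.1% lower). The Fgfr3 call was lost without proximal 2 (adjusted p = 0.0861) or the large intestine (0.0553), and without the library block only Fgf1 and Fgf2 were called. With the stricter gate, which only the large bowel libraries could fill, the calls of Fgf1 (2.23, adjusted p = 0.055), Fgf18 (1.06, adjusted p = 0.1525), Fgf9 (0.82, adjusted p = 0.1689) and Fgfr1 (0.036, adjusted p = 0.9602) were lost.

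The regions of the gut were compared next, with the 2 large bowel libraries against the 4 small intestinal ones. The large bowel libraries are 1 of cecum and 1 of large intestine. Their spread thus holds the difference between these tissues and is not a spread between replicates of 1 tissue. In all fibroblast-like cells, Fgf9 stood at 3.39, 2.83, 2.51 and 4.51 CPM in the small intestine and at 34.7 and 68.0 CPM in the large bowel. Fgf10 stood at 47.8, 76.7, 69.6 and 132.2 CPM against 169.1 and 154.0 CPM. Fgf7 stood at 49.8, 45.3, 38.2 and 30.8 CPM against 65.3 and 102.1 CPM. For these 3 ligands both large bowel libraries lay above all 4 small intestinal libraries. The same held for Fgfr4 (2.31 to 4.60 against 22.3 and 8.95 CPM) and Fgf18 (1.07 to 1.59 against 3.06 and 6.48 CPM). Fgf2, Fgfr1 (214.9 to 244.1 against 198.9 and 202.7 CPM), Fgfr2 and Fgfr3 separated in the other direction, and Fgf1 overlapped. With 2 against 4 libraries such separation also arises by chance. The share of all genes that separated was not counted, so nothing is concluded from it.

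**Figure D3:**
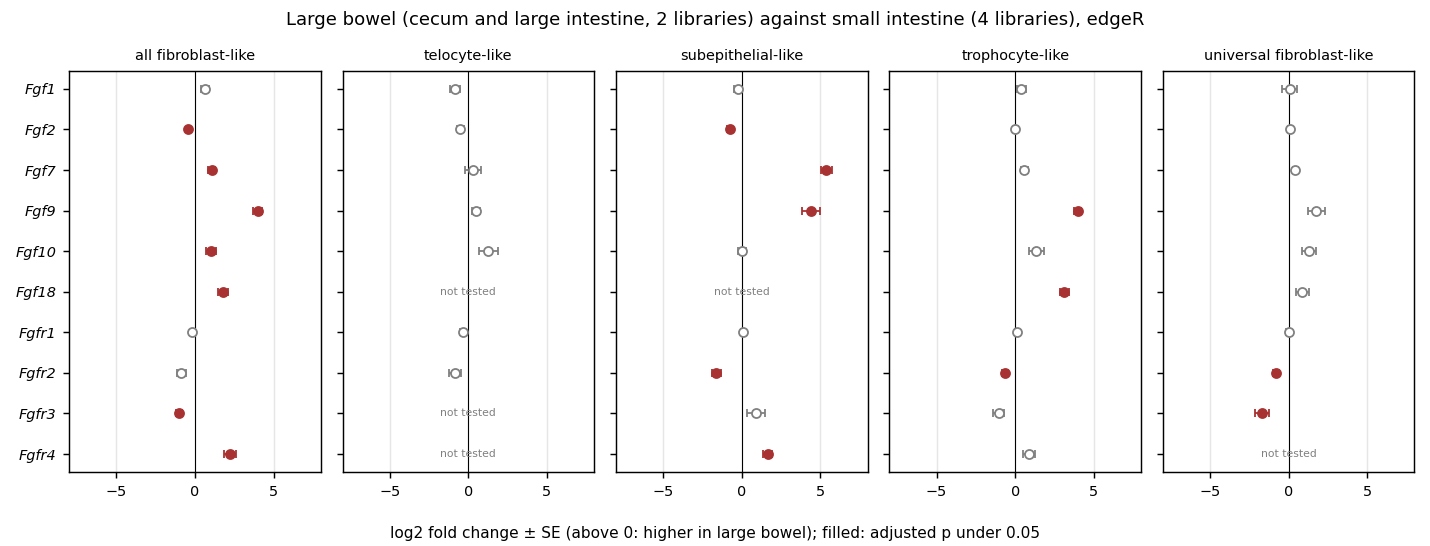
Log2 fold change (± SE) of the 10 genes in the large bowel against the small intestine, from edgeR, in all fibroblast-like cells and in 4 subsets. Filled points had an adjusted p under 0.05. Fgf9 was higher in the fibroblast-like, subepithelial-like and trophocyte-like cells, whereas none of the 7 genes tested was called in telocyte-like cells.

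In the fit 5 genes were higher in the large bowel, namely Fgf9 (3.99 ± 0.28, adjusted p = 0.000538), Fgfr4 (2.21 ± 0.38, adjusted p = 0.00767), Fgf18 (1.82 ± 0.32, adjusted p = 0.00793), Fgf7 (1.06 ± 0.22, adjusted p = 0.0141) and Fgf10 (1.04 ± 0.33, adjusted p = 0.0477). Fgfr3 (-1.02) and Fgf2 (-0.43 ± 0.11, adjusted p = 0.0244) were lower, and Fgfr2 missed the threshold in edgeR (-0.88, adjusted p = 0.0535). Fgfr2 was called lower with DESeq2 (adjusted p = 0.0109), limma-voom (0.0436), no filter on low counts (0.0456), predicted doublets kept (0.0488) or distal 1 left out (0.0245). Of all 19527 genes tested 31% were called, 16.3% higher and 14.8% lower, and the median log2 fold change was 0.83 for the 10 genes and -0.01 for all genes. Within the 4 libraries that share a hashtag set, 3 of the 7 calls were made, Fgf9 (4.10, adjusted p = 0.00716), Fgf10 (1.44, adjusted p = 0.0302) and Fgfr4 (2.54, adjusted p = 0.0371). Without the large intestine 4 of the 7 genes were called, with Fgf7 lost (0.76, adjusted p = 0.0685), and without the cecum Fgfr3 was lost (adjusted p = 0.0613) while the Fgfr4 value was 1.35 and the Fgf18 value 1.13, both still called. The Fgf2 call was lost without any 1 library other than distal 1 (adjusted p = 0.0558 to 0.075). The Fgf10 call was lost without the large intestine (adjusted p = 0.0896), proximal 1 (0.0667), proximal 2 (0.1043), distal 1 (0.085) or the cecum (0.1601). The subset mix moved with region too: the 7 telocyte markers summed to 224.4 to 1173 CPM in the large bowel fibroblast-like cells and to 67.0 to 134.7 CPM in those of the small intestine, and their part in these values was not tested. The comparisons within subsets below hold the gate fixed.

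In the subepithelial-like cells Fgf7 (5.38 ± 0.33, adjusted p = 0.000131), Fgf9 (4.41 ± 0.56, adjusted p = 0.00187) and Fgfr4 (1.65 ± 0.30, adjusted p = 0.00627) were higher in the large bowel. Fgfr2 (-1.61 ± 0.26, adjusted p = 0.00444) and Fgf2 (-0.78 ± 0.16, adjusted p = 0.00861) were lower, 5 of the 9 genes tested against 38.3% of all genes (20.8% higher and 17.5% lower). Without the cecum the Fgfr4 value was 0.85, and without the large intestine the Fgf7 value was 4.78 and the Fgf9 value 3.69, all still called. The log2 fold change of Fgf10 was 0.0059 and its sign changed with the processing. Within the shared hashtag set the Fgf7 (5.31), Fgf9 (4.26), Fgfr2 (-1.68) and Fgfr4 (1.58) calls were made and the Fgf2 call was not (-0.60, adjusted p = 0.0575), nor was it without the cecum (-0.75, adjusted p = 0.0522). Telocyte and universal fibroblast markers moved with these values. The list of 7 telocyte markers summed to 233.3 to 518.7 CPM in the large bowel cells of this class and to 62.9 to 109 CPM in those of the small intestine, with Sox6 at 62.7 to 231.3 against 18.3 to 44.0 CPM, while 7 of the 9 subepithelial markers reached 5 CPM in the large bowel. The 5 universal fibroblast markers summed to 316.5 to 553.7 against 35.8 to 122.5 CPM, with Ly6c1 at 202.0 to 387.6 against 3.57 to 6.29 CPM. Their part in the result was not tested. No immune or glia marker reached 5 CPM in the fibroblast-like classes.

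In the trophocyte-like cells Fgf9 (3.96 ± 0.22, adjusted p = 0.000122) and Fgf18 (3.12 ± 0.30, adjusted p = 0.000929) were higher and Fgfr2 (-0.66 ± 0.17, adjusted p = 0.0325) lower in the large bowel, 3 of 10 genes against 19.8% of all genes (10.4% higher and 9.43% lower). Fgf18 was at 1.79, 1.29, 1.16 and 0.88 CPM in the small intestine and at 11.3 and 9.51 CPM in the large bowel, without overlap. Within the shared hashtag set Fgf9 (4.17) and Fgf18 (2.93) were called and Fgfr2 was not (-0.50, adjusted p = 0.1612), and the Fgfr2 call was also lost without proximal 1 (adjusted p = 0.0576), proximal 2 (0.0763), distal 2 (0.06) or the cecum (0.1634). The telocyte markers summed to 60.2 to 124.4 CPM in these large bowel cells and to 51.0 to 86.7 CPM in those of the small intestine. The 5 universal fibroblast markers summed to 865.8 to 890.3 against 345.9 to 391.4 CPM, with Ly6c1 at 286.7 to 320.1 against 25.6 to 46.3 CPM, and Fgf9 and Fgf18 were both higher in universal fibroblast-like than in trophocyte-like cells. Of the subepithelial markers Wnt4 stood at 12.1 to 21.8 against 1.78 to 2.09 CPM, while the list of 9 summed to 76.4 to 113.3 against 144.1 to 328.3 CPM. Their part in the result was not tested. The universal fibroblast-like cells had 2 lower genes, Fgfr2 (-0.80, adjusted p = 0.0248) and Fgfr3 (-1.70, adjusted p = 0.0415), of 9 tested against 10.7% of all genes (5.02% higher and 5.71% lower). The 6 trophocyte markers summed to 2589 to 3074 CPM in these large bowel cells and to 3775 to 4792 CPM in those of the small intestine, with Dkk2 at 0.63 to 0.68 against 133.0 to 187.6 CPM, and Fgfr2 and Fgfr3 were both higher in trophocyte-like than in universal fibroblast-like cells. The part of these markers in the result was not tested. Neither was called without proximal 1, proximal 2 or the cecum (adjusted p = 0.052 to 0.2353), Fgfr3 was also lost without distal 2 (0.0795) or the large intestine (0.0541), and within the shared hashtag set 1 member was called, Fgf9 (2.57, adjusted p = 0.0423). With all libraries Fgf9 was at 1.75 (adjusted p = 0.0717), and it was also called with limma-voom (2.14, adjusted p = 0.0271), with no filter on low counts, and without distal 2 (adjusted p = 0.0108) or the large intestine (adjusted p = 0.0488).

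In telocyte-like cells edgeR called none of the 7 genes tested between the regions, with 16.4% of 8719 genes called (8.34% higher and 8.1% lower). At an unadjusted p under 0.05, 3 were lower (Fgf1, Fgf2 and Fgfr2) and 0 higher, and DESeq2 and limma-voom also called 0. The small intestinal sums held only 28 to 79 telocyte-like cells each, and the share of cells with an Lgr5 UMI, which held more Fgf7, differed between the regions, as given below. Without distal 1 the calls were Fgf7 (1.14, adjusted p = 0.00863) and Fgfr2 (-1.07, adjusted p = 0.0268), and without the cecum Fgf10 (1.96, adjusted p = 0.00468). Between distal and proximal fibroblast-like cells none of the 10 genes was called, with 0.0106% (2 of 18943 genes) called in all, 0.00528% in each direction. At an unadjusted p under 0.05 edgeR called 0 of the 10, and DESeq2 and limma-voom called 0 after adjustment. The fit with a replicate block differed for Fgf10 and is given below with the processing.

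Whether a subset difference itself depended on region was tested as an interaction in edgeR. Fgf9 was higher in telocyte-like than in trophocyte-like cells by 6.18 on the log2 scale in the small intestine and by 2.60 in the large bowel, a difference of -3.57 ± 0.33 (adjusted p = 0.000102), the 1 call among 8 genes tested against 4.13% of all genes (1.39% higher and 2.73% lower). The telocyte-like levels were alike in both regions and the trophocyte-like levels were not, as given above. Fgf7 in subepithelial-like against trophocyte-like cells was -4.56 in the small intestine and 0.13 in the large bowel, a difference of 4.69 ± 0.50 (adjusted p = 0.00319). Both of these held in every alternative run (12 for Fgf9, 13 for Fgf7), the latter at 4.04 without the large intestine and 5.38 without the cecum. In the same comparison Fgf2 went from -0.86 to -1.69 (difference -0.82 ± 0.16, adjusted p = 0.0208) and Fgf10 from 2.27 to 0.68 (difference -1.59 ± 0.41, adjusted p = 0.0462), 3 calls among 10 genes against 15.2% of all genes (8.06% higher and 7.13% lower). The Fgf10 call was lost in 7 of 13 alternatives, including without any 1 library other than distal 1 (adjusted p = 0.0625 to 0.1634), and the Fgf2 call without distal 2 (0.0534) or the large intestine (0.1031). Fgf9 in universal fibroblast-like against trophocyte-like cells went from 2.87 to 0.77 (difference -2.10 ± 0.37, adjusted p = 0.0149), the 1 call among 9 genes against 2.68% of all genes (0.421% higher and 2.26% lower). It was lost without distal 1 (adjusted p = 0.051) or the cecum (0.0526).

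The telocyte gate covered cells that differed in Fgf7. Lgr5, which is known from telocytes of the villus tip, is 1 of the 7 gate markers, and cells with and without an Lgr5 UMI were compared as a description, chosen after the values were seen. The Lgr5 side held less Sox6, another gate marker, in all 6 libraries (252 against 1700 CPM in the cecum and 227 against 1811 CPM in the large intestine). Foxl1 and Bmp7 took no single direction. Since Lgr5 counts toward the gate, cells on that side needed fewer of the other markers, and the part of this in the Sox6 values was not tested. The Lgr5 side is not shown to be villus tip telocytes in every library. The paper describes such telocytes in the small intestine, so the name is not carried over to the cecum or large intestine. Cells with an Lgr5 UMI held 296.3, 259.1, 801.5, 762.3, 1079 and 1076 CPM of Fgf7. Cells without one held 13.2, 24.1, 78.9, 0, 155.9 and 127.3 CPM. The higher value was on the Lgr5 side in all 6 libraries, with 25, 9, 21, 4, 18 and 86 cells on that side. In distal 2 that side held 24 Fgf7 UMIs, nearly all of them in 1 cell, as given above. The Fgf10 values on that side rested on 1, 0, 2, 0, 1 and 44 UMIs, too few for a direction outside the large intestine, where Fgf10 was at 44.1 CPM with Lgr5 and 90.1 CPM without. Within each side Fgf7 was higher in both large bowel libraries than in any small intestinal one, while the Lgr5 side made up 4 of 28 to 21 of 47 telocyte-like cells in the small intestine, and 18 of 408 (cecum) and 86 of 2874 (large intestine) in the large bowel. These values were not tested. Fgf9 took no single direction (350.1 against 147.6 CPM in proximal 1 and 189.0 against 286.0 CPM in the cecum).

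**Figure D4:**
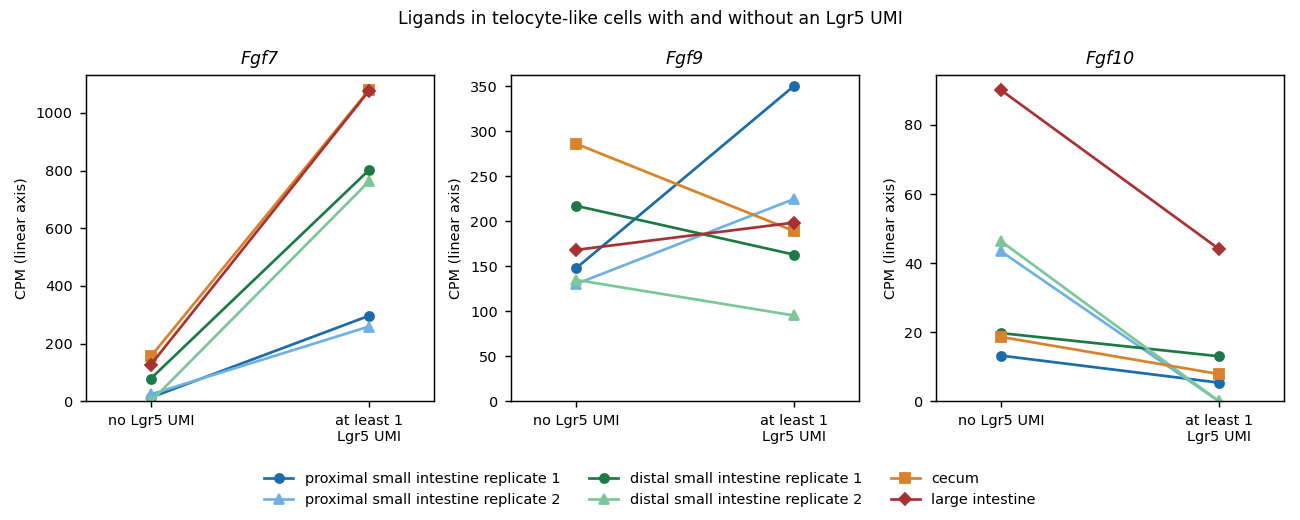
Fgf7, Fgf9 and Fgf10 in telocyte-like cells without and with an Lgr5 UMI, in CPM, with 1 line per library. Fgf7 was higher with Lgr5 in all 6 libraries, in distal 2 on 24 UMIs that lay nearly all in 1 cell. The Fgf9 lines crossed, while the Fgf10 points with Lgr5 rest on 0 to 2 UMIs outside the large intestine.

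The wider pathway was read from 59 further genes (other ligands, co-receptors and binding proteins, heparan sulfate enzymes, adaptors, and feedback inhibitors with target genes). In telocyte-like against trophocyte-like cells, 8 of the 42 tested were higher and 9 lower, where 13.9% of all genes were higher and 18.8% lower, with a median log2 fold change of 0.07 (-0.02 over all genes). Feedback inhibitors and target genes were higher in 5 of 9 and lower in none. Spry4, an inhibitor of signaling below the receptors, averaged 101 ± 12.3 CPM in telocyte-like cells, and the trophocyte-like average was 7.62 ± 2.88 CPM (SD over 6 libraries, log2 fold change 3.55 ± 0.21, edgeR adjusted p = 2.5e-06). Etv1, a target transcription factor, was higher at 2.05 and the sulfotransferase gene Hs6st1 at 1.44, and the genes with the largest falls were Flrt2 (-6.02), Fgf14 (-5.11) and Flrt3 (-4.28). Flrt2 and Flrt3 code for membrane proteins that bind FGF receptors, and Fgf14 for an intracellular member of the family that is not secreted.

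Subepithelial-like cells had 9 higher and 13 lower of 43 pathway genes (median -0.0076), where 50% of all genes were called. Feedback inhibitors and target genes were again higher in 5 (of 10) and lower in none, led by Etv4 (3.08, at a low 2.83 against 0.348 CPM) and Spry4 (1.91). Hs6st1 was higher at 1.53, and Flrt2 (-5.86), Fgf14 (-5.72) and Fgf13 (-3.93) were lower. Universal fibroblast-like cells had 6 higher and 7 lower of 42 (median -0.10), where 30% of all genes were called. The counts of both classes are near these shares. Sulf1 (1.35), an enzyme that trims heparan sulfate, Gpc3 (0.92) and Flrt2 (0.67) were higher, and Fgf12 (-1.18), Sdc1 (-1.01) and Fgf13 (-1.003) lower. At an unadjusted p under 0.05, 0 of the feedback and target genes were lower in telocyte-like and 1 in subepithelial-like cells, and DESeq2 and limma-voom called 0 lower in either class.

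Outside the fibroblasts, LEC-like cells had 11 higher and 26 lower of 47 pathway genes (median -0.40 against -0.05 over all genes), where 32.1% of all genes were higher and 35.9% lower. The intracellular FGF genes Fgf13 (101 against 18.3 CPM, 2.94) and Fgf12 (244 against 39.5 CPM, 2.71) were higher there, as was the fitted value of the secreted Fgf16 (1.91), which stood at 0.437 against 0.195 CPM with overlapping libraries and was higher in 4 of 6, while the heparan sulfate carriers Gpc6 (-5.49), Gpc3 (-5.46) and Sdc2 (-5.16) were lower. Pericyte-like cells had 5 higher and 17 lower of 45 (median -0.29 against -0.18), where 14.4% of all genes were higher and 22.1% lower, with Spry4 (139.5 against 25.8 CPM, 2.65), Spry1 (1.495) and Gab1 (0.83) higher and Fgf14 (-5.85), Flrt3 (-5.60) and Flrt2 (-5.18) lower. Myofibroblast-like cells had 5 higher and 26 lower of 45 (median -0.58 against -0.14), where 15.6% of all genes were higher and 21.9% lower, and all 10 feedback inhibitors and target genes were lower. Fgfrl1 (0.98), a receptor-like gene without a kinase, Fgf11 (0.76) and Fgf13 (0.74) were higher, Fgf14 was lower (-4.85), and no UMI of Etv4 or Fgf23 was counted over the myofibroblast-like cells of all 6 libraries, which allows up to 0.398 CPM against means of 1.21 and 1.28 CPM in fibroblast-like cells.

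Between regions, 9 of 50 pathway genes were higher and 8 lower in large bowel fibroblast-like cells, with a median log2 fold change of -0.06 (-0.01 over all genes), a count near the 31% of all genes called. Feedback inhibitors and target genes were higher in 4 of 10, where 16.3% of all genes were higher, and lower in 0 (0 also at an unadjusted p under 0.05 and with DESeq2 or limma-voom), with Spry4 at 44.9 against 11.7 CPM (1.99) and Spry1 at 1.33. Telocyte-like cells, which averaged 101 CPM of Spry4 against 7.62 CPM in trophocyte-like cells, made up 0.269% to 0.717% of the fibroblast-like cells in the small intestine, and 3.3% (cecum) and 29.2% (large intestine) in the large bowel, and their part in the Spry4 value was not tested. Kl, a co-receptor gene, was higher at 1.20 but almost absent in both regions (0.407 against 0.180 CPM). Fgf14 (-5.68), Fgf13 (-3.38) and the heparan sulfate editor Sulf2 (-1.39) were lower. In trophocyte-like cells 6 of 47 were higher and 6 lower (19.8% of all genes called), with Dusp6 (1.49), a phosphatase that acts on ERK, Flrt2 (1.22) and Spry4 (1.05) higher and Fgf14 (-3.62), Fgf13 (-2.69) and Fgf12 (-1.25) lower. In subepithelial-like cells 6 of 43 were higher and 10 lower (38.3% of all genes called), with the syndecan genes Sdc1 (1.60) and Sdc4 (1.25) and Flrt2 (2.19) higher and Fgf14 (-2.52), Fgf13 (-1.83) and Hs6st1 (-1.60) lower. In universal fibroblast-like cells 2 of 43 were higher, Spry1 (1.51) and Spry4 (1.18), and 3 lower, Fgf14 (-5.36), Fgf13 (-3.03) and Gpc4 (-0.80), a count near the 10.7% of all genes called. In telocyte-like cells 2 of 33 were higher, Sdc4 (1.13) and Gpc1 (0.97), and 6 lower, led by Hs3st1 (-3.27), Gpc3 (-2.77) and Sulf2 (-2.21), where 16.4% of all genes were called. The 6 trophocyte markers summed to 86.6 to 144.7 CPM in these large bowel cells and to 193.9 to 763.3 CPM in those of the small intestine, with Grem1 at 4.63 to 7.36 against 31.96 to 329.8 CPM, and Gpc3 was higher in trophocyte-like than in telocyte-like cells. The part of these markers in the result was not tested. Between distal and proximal small intestine edgeR called 0 of 49 (2 at an unadjusted p under 0.05), limma-voom 0 and DESeq2 1.

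The genes most like each member were found by Pearson correlation of log2(CPM + 1) over the 61 sums of class and library, among 12826 genes that reached 10 CPM in a class. The sums share libraries and classes, so these are descriptions. Fgf2 followed the collagen genes Col16a1 (0.95) and Col5a1 (0.94) as well as Olfml1 (0.93), and Fgfr1 followed Ehbp1, Plscr4 and Nfix (0.94 each). Fgf7 was closest to Armh4 (0.90), Tceal5 (0.88) and Sdk1 (0.88), and Fgf9 to Gpr39 (0.85), Fst (0.83), which codes for follistatin, and Nalf1 (0.83). Fgf10 was closest to Gm16263 (0.93), which overlaps it on the opposite strand, and to Dnmt3l and Rad51b (0.90 each). Fgfr2 followed Gm4265 (0.93), Gm40604 (0.86) and Prtn3 (0.86). The lower genes had weaker partners, for Fgf1 Klhdc8b (0.84), Dlc1 (0.82) and Plekhg2 (0.80), for Fgf18 Lgi3 and Adgrd1 (0.80 each) and Zyx (0.78), for Fgfr3 Ano6 (0.80) and C2cd2 (0.76), and for Fgfr4 Cntn6 (0.76), Kcnd2 (0.75) and Drp2 (0.72).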

How the data were processed

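The deposited files hold raw counts of unique molecular identifiers per gene and barcode, made by the authors with Cell Ranger 8.1.0 on mm39 per the labels; ambient RNA correction and doublet removal described by the study are not part of the deposited counts. Cells had to hold 1000 to 7500 genes and 2500 to 40000 UMIs, of which less than 10% mitochondrial, and doublets predicted by Scrublet (scanpy 1.11.5), 4.90% to 11.3% of these cells per library, were removed. Libraries shared 0.32% to 0.61% of barcodes with another, as a share of the smaller library. Cells were gated by markers, with limits set after the cells were seen, and UMIs were summed per library and class.

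Class comparisons used edgeR 4.0.16 quasi-likelihood fits in R 4.3.3 (TMM, filterByExpr with a minimum count of 10, library as a block), and regions were compared without a block. Adjusted p-values are Benjamini-Hochberg values over all genes tested, with 0.05 as the threshold, and the SE is the absolute log2 fold change over the root of F. The fits were first tested on simulated counts with 200 genes set to differ 2-fold. False calls made up 3.68% (LEC-like) to 23.45% (pericyte-like) of the calls between classes. They made up 4.92% (trophocyte-like) to 13.11% (telocyte-like) between large bowel and small intestine, and 23.53% for distal against proximal. Of the set genes, 55.5% to 93% were recovered between classes. Between large bowel and small intestine 26.5% to 34% were recovered, and 13% for distal against proximal. Alternatives were DESeq2 1.42.0, limma-voom 3.58.1, other size factors, no filter, each library left out, free RNA subtracted, doublets kept, stricter gates, no block, a replicate block, and libraries of 1 region or hashtag set. All 10 members are named, and of the pathway list up to 3 called genes per direction and comparison with the largest change. For each member the 3 genes of highest correlation are named, of which 1 is not reported here. Region comparisons within subepithelial-like, trophocyte-like and universal fibroblast-like cells, the interaction tests and the split by Lgr5 were added after values were seen. The members and lists were chosen with earlier results of these data known. Positions are those of the canonical transcripts in GRCm39.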

Additional observations from a re-analysis of the deposited data

Results flagged for a closer look

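For 5 values the edgeR interaction test found that a difference between fibroblast subsets was not the same in the large bowel and the small intestine. On the log2 scale the difference between regions was -3.57 for Fgf9 in telocyte-like against trophocyte-like cells, 4.69 for Fgf7, -0.82 for Fgf2 and -1.59 for Fgf10 in subepithelial-like against trophocyte-like cells, and -2.10 for Fgf9 in universal fibroblast-like against trophocyte-like cells. The Fgf10 call was lost in 7 of 13 alternatives, including every left-out library other than distal 1. The Fgf2 call was lost without distal 2 (adjusted p = 0.0534) or the large intestine (0.1031), and the Fgf9 call in universal fibroblast-like cells without distal 1 (0.051) or the cecum.

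In 4 of 49 groups of 4 small intestinal libraries, 1 library stood apart by Dixon's criterion, which chance alone gives in about 1 of 20 groups. These were Fgf1 in other fibroblast-like cells of distal 1 (11.2 CPM), Fgf1 in BEC-like cells of proximal 2 (39.2 CPM), Fgf7 in telocyte-like cells of distal 1 (351.5 CPM) and Fgfr2 in myofibroblast-like cells of proximal 1 (168.6 CPM).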

How the results depend on the processing

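Of 1636 values recomputed under alternatives, 1460 kept their direction and side of the threshold, 87 lost a call, 44 gained one and 45 changed sign. The cause was not tested where a value changed.

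Numbers of the 10 genes called moved as follows. With stricter gates 4 rather than 7 were called in telocyte-like and 3 rather than 8 in universal fibroblast-like against trophocyte-like cells (large bowel libraries only), and without the library block 2 in the latter. Between regions, leaving out 1 library gave 4 to 7 calls in fibroblast-like, 0 to 2 in telocyte-like, 2 to 4 in trophocyte-like and 0 to 5 in universal fibroblast-like cells, and 1 hashtag set gave 3 in fibroblast-like and 1 in universal fibroblast-like cells. With no filter 3 were called in telocyte-like and 5 in universal fibroblast-like cells, with doublets kept 1 in telocyte-like cells, and with DESeq2 5 in trophocyte-like cells. The stricter gate could not be run between regions in telocyte-like and universal fibroblast-like cells.

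Over all genes, dropping the block gave 4361 rather than 7481 calls in subepithelial-like and 243 rather than 3915 in universal fibroblast-like against trophocyte-like cells, and the stricter gate gave 444 in the latter. Between regions, leaving out 1 library gave 3214 to 6581 calls in fibroblast-like, 647 to 1598 in telocyte-like, 3117 to 6973 in subepithelial-like, 1230 to 3846 in trophocyte-like and 474 to 2729 in universal fibroblast-like cells, and 1 hashtag set gave 1732, 369, 2647, 1037 and 302. No filter gave 2276 in telocyte-like and 2882 in universal fibroblast-like cells, free RNA subtraction 867 in telocyte-like cells, and limma-voom 2146 and the stricter gate 1757 in trophocyte-like cells.

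Distal against proximal, 2 genes were called with edgeR, 134 with DESeq2, 1 with limma-voom, 20 with no filter and 5 to 19 with 1 library left out. Libraries with the same replicate number share a number and a hashtag set (r = 0.349 of their deviations, 2 pairs), and the replicate block gave 258 calls and 1 of the 10 genes, Fgf10 (0.70, adjusted p = 0.0296).

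Each value that changed sign had no call with all libraries, and 1 had a call after the change, Fgf1 in universal fibroblast-like cells between regions without the large intestine (-1.27, adjusted p = 0.0148). With 1 library left out, distal against proximal ranged from -0.19 to 0.010 for Fgf2, -0.59 to 0.30 for Fgfr2, -0.11 to 0.014 for Fgfr1, -0.56 to 0.28 for Fgfr4, -0.20 to 0.49 for Fgf9 and -0.32 to 0.25 for Fgf1. Between regions it ranged from -0.29 to 1.96 for Fgf10 in telocyte-like cells, in subepithelial-like cells from -0.078 to 0.21 for Fgfr1, -0.28 to 0.24 for Fgf10 and -0.66 to 0.058 for Fgf1, in trophocyte-like cells from -0.24 to 0.19 for Fgf2 and -0.23 to 0.79 for Fgf1, and in universal fibroblast-like cells from -0.056 to 0.047 for Fgfr1 and -1.27 to 0.77 for Fgf1, which was called without the large intestine (adjusted p = 0.0148). Distal against proximal, the stricter gate gave 0.14 for Fgfr2, 0.16 for Fgfr4 and 0.088 for Fgf1, which was 0.0049 with no filter and 0.0042 with doublets kept. Between regions in subepithelial-like cells the stricter gate gave -0.17 for Fgfr1, 0.025 for Fgf1 and -0.22 for Fgf10, which was -0.018 with DESeq2 and other size factors, -0.052 with no filter and -0.042 with free RNA subtracted. In trophocyte-like cells Fgf2 was -0.0074 with no filter, -0.00054 with free RNA subtracted, -0.012 with doublets kept and -0.13 with the stricter gate. In universal fibroblast-like cells Fgfr1 was 0.046 with no filter and Fgf1 -0.23 with limma-voom, and in telocyte-like cells Fgf7 was -0.26 within 1 hashtag set.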

Other observations

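Some sums were too small for the comparisons. Epithelial-like cells passed the minimum in the large intestine only (51 cells), where Fgf9 stood at 7.002 CPM, Fgf10 at 5.45 CPM and Fgf7 at 0.778 CPM. In the glia-like cells of 3 libraries no UMI of Fgf7, Fgf9, Fgf10, Fgf18 or Fgfr3 was counted, which allows up to 4.19 CPM each. The 7 glia-like cells of the large intestine, below the minimum, held 3 UMIs of Fgf7.

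In the large intestine, 890 of the 2874 telocyte-like cells had an Fgf7 UMI. Ly6c1, a marker of universal fibroblasts, stood at 202 to 388 CPM in the large bowel subepithelial-like cells and at 3.6 to 6.3 CPM in those of the small intestine.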
